A study of Mus musculus with 4 samples.

Results

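Lysosomal cathepsins were examined in mouse embryonic fibroblasts, connective tissue cells taken from embryos into culture. RNA was read on 4 Affymetrix MOE430A arrays. The genes were chosen by name, with earlier results of these data known: Ctsa, Ctsb, Ctsc, Ctsd, Ctsh, Ctsk, Ctsl and Ctsz. All probe sets, the groups of short probes that read 1 transcript region, were taken that the platform annotation gives exactly 1 of these symbols. The 8 genes are among 12393 that have such a probe set on the array. They have 13 probe sets, of 22626 probe sets that are not controls and 12396 that were tested. Each of the 13 was called present on all 4 arrays. Ctsb had 4 probe sets, Ctsz had 3 and each other gene had 1.

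The 2 mTert samples carried a pBabePuro retrovirus with mTert, which encodes the catalytic protein of mouse telomerase, and the 2 control samples the same virus without an insert. All 4 samples had thus been infected with a vector that confers puromycin resistance. The titles number the samples 1 and 2 in each group, and the labels do not say what the numbers stand for or whether samples came from separate cultures. The spread behind each p-value is thus that of these samples and may be technical. Passage number, embryo and genotype of the cells are likewise not given in the labels.

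Cathepsins are proteases of the lysosome, the acidic compartment in which cells break down proteins. Ctsb, Ctsc, Ctsh, Ctsk, Ctsl and Ctsz encode cysteine proteases of the papain family, Ctsd an aspartic protease and Ctsa a serine carboxypeptidase. They are made as inactive precursors and carried to the lysosome mostly by mannose 6-phosphate receptors. Cystatins hold the cysteine proteases among them in check. Fibroblasts use them for protein turnover and matrix breakdown, and macrophages, which digest what they engulf, express several of them strongly. Many lysosomal genes are switched on by TFEB and related factors, which bind a promoter element with the core CACGTG.

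The signal of Tert checked the labels. It was 845.4 on mTert 2 and 1165 on mTert 1, called present, against 84.7 on control 2 and 128.0 on control 1, called absent. Between 51.6% and 54.4% of probe sets were called present per array. Between the control probe sets at the 3' and 5' ends the signal ratio was 1.145 to 1.217 for actin and 0.773 to 0.837 for Gapdh. The instrument records gave 15 µg of labelled cRNA for mTert 2, mTert 1 and control 2, and 5 µg for control 1. All 13 measured fibroblast markers, among them Col1a1, Col1a2 and Vim, were present on all 4 arrays. Of the 8 osteoclast markers 6 were on the array and 0 were called present. Markers of endothelial, epithelial, muscle and neural cells were mostly absent, with 6 of 8, 6 of 8, 5 of 8 and 6 of 7 of those on the array called present nowhere.

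Promoter sequences from RefSeq (GRCm38.p6), 250 bases before to 50 after a transcription start, were at hand for 6 of the 8 genes: Ctsa (with 2 starts), Ctsc, Ctsd, Ctsk, Ctsl and Ctsz. The table held none for Ctsb and Ctsh. Those of Ctsa and Ctsd are shown because they hold the CACGTG core more than once, and that of Ctsc because it belongs to the gene with the largest difference between arrays titled 2 and 1 among the 6. Capitals mark CACGTG.
Ctsa promoter, chr2:164833523-164833822, plus strand: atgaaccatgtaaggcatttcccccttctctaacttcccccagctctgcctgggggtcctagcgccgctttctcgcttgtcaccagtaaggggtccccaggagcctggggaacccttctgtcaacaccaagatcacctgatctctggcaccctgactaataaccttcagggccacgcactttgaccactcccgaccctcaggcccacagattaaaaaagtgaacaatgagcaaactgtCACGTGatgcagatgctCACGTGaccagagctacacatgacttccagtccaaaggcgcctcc
Ctsd promoter, chr7:142387778-142388077, minus strand: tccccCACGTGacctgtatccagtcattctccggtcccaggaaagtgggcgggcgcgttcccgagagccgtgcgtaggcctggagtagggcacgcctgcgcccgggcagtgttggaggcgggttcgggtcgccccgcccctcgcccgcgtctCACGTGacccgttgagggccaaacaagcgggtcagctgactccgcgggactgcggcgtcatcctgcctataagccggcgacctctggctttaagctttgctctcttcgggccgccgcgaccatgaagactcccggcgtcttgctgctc
Ctsc promoter, chr7:88277835-88278134, plus strand: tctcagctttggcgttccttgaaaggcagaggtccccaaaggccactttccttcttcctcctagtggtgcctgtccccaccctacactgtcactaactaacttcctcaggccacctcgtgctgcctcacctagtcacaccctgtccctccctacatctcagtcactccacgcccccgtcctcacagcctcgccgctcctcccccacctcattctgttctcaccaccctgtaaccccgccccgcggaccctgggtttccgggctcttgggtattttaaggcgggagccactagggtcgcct
The core CACGTG, searched on both strands and identical on both, occurred in 7.15% of 32851 promoters of the same length. It occurred 2 times in the shown Ctsa promoter, starting at positions -12 and 6 from the start site, and 2 times in that of Ctsd, at -245 and -98. All 4 matches lay within the longer TCACGTG or its reverse complement, which occurred in 3.77% of promoters and overlaps the core by construction. Ctsl held 1 core at -236. The windows of Ctsc, Ctsk, Ctsz and the other start of Ctsa held 0. A match describes letters and not binding.

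Within both groups, the array titled 2 was set against the array titled 1, as mTert 2 against mTert 1 and control 2 against control 1. Ctsb, an abundant cathepsin that cleaves both within chains and at their ends, was higher on arrays titled 2 by 1.25-fold to 1.62-fold over its 4 probe sets. Ctsc, which activates serine proteases of immune cells, was 1.45-fold higher but did not pass the test. Ctsl and Ctsk, the proteases of general turnover and of collagen breakdown, were slightly lower on arrays titled 2 in both groups and did not pass. Of the 13 probe sets 3 rose at an adjusted p under 0.05, all of Ctsb, and 0 fell. Over all tested probe sets 1.73% rose and 1.07% fell by the same rule, 2.8% in all. At an unadjusted p under 0.05 stood 6 of the 13, against 10.2% of all. By the brightest probe set of each gene 1 of the 8 genes rose at an adjusted p under 0.05, against 1.91% of all genes tested. The test was limma with a term for the group and p-values adjusted by Benjamini and Hochberg over 12396 probe sets.

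**Figure D1:**
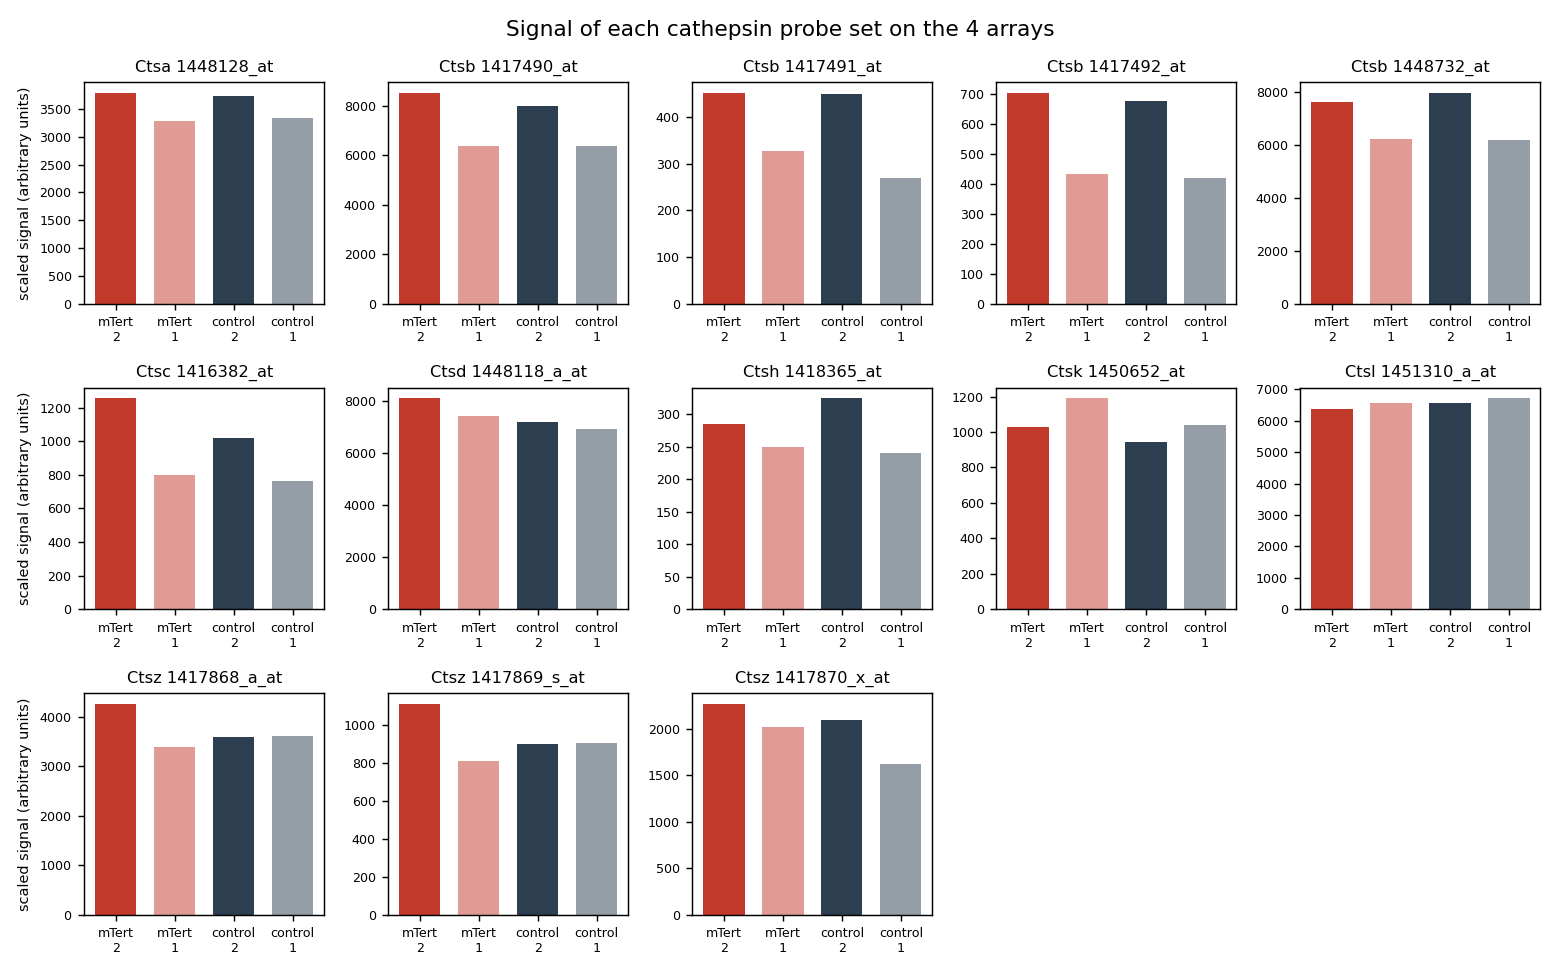
Scaled signal in arbitrary units (vertical axes, each from 0) of the 13 cathepsin probe sets on the 4 arrays, 1 bar per array. In all 4 Ctsb panels and that of Ctsc both arrays titled 2 stand above both titled 1, whereas the Ctsl bars lie between 6389 and 6714.

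For Ctsb probe set 1417490_at the signal was 8528 on mTert 2 against 6390 on mTert 1, and 7993 on control 2 against 6365 on control 1. Probe set 1448732_at read 7628 on mTert 2 against 6235 on mTert 1, and 7964 on control 2 against 6201 on control 1. Both arrays titled 2 were high and both titled 1 low, with no overlap. The log2 differences were 0.37 (SE 0.08) for the first and 0.33 (SE 0.08) for the second, with limma adjusted p of 0.010 and 0.028. As means ± SD the first probe set had 8260 ± 378 on arrays titled 2 and 6377 ± 18.1 on arrays titled 1 (n = 2 each).

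The other Ctsb probe sets gave larger differences. Probe set 1417492_at read 704.7 on mTert 2 against 432.7 on mTert 1, and 677.4 on control 2 against 419.5 on control 1. It rose by 0.70 on the log2 scale (SE 0.17, limma adjusted p = 0.028). Probe set 1417491_at read 451.2 on mTert 2 against 327.9 on mTert 1, and 447.9 on control 2 against 268.5 on control 1. Its log2 difference was 0.60 (SE 0.19), which did not pass (limma adjusted p = 0.136). All 4 probe sets had the same direction in each group, and none overlaps between the numbers. They share 1 annotated transcript accession and are not independent readings.

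Both mTert arrays had the same recorded amount of cRNA. Between these, mTert 2 over mTert 1, Ctsb stood at 1.33-fold, 1.22-fold, 1.63-fold and 1.38-fold in the order just given. Between control 2 and control 1, which differ in that amount, it stood at 1.26-fold, 1.28-fold, 1.61-fold and 1.67-fold. The fit leaves 1 residual degree of freedom. On simulated data it called more unchanged probe sets than its threshold allows. Its Ctsb calls depend on the settings. After quantile normalization 1 probe set passed, and 0 passed with no filter on calls or without an intensity trend. With any 1 array left out and no group term 0 passed, while the log2 differences of the 3 probe sets lay between 0.29 and 0.73.

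Ctsc had 1255 on mTert 2 against 799.3 on mTert 1, and 1019 on control 2 against 766.1 on control 1. The numbers did not overlap, and the log2 difference was 0.53 (SE 0.15, limma adjusted p = 0.066). Ctsh, an aminopeptidase, read 285.1 on mTert 2 against 250.6 on mTert 1, and 324.8 on control 2 against 240.0 on control 1. Its log2 difference of 0.31 (SE 0.21) did not pass (limma adjusted p = 0.753). Ctsa, which also shields the enzymes beta-galactosidase and neuraminidase in a complex, read 3787 on mTert 2 against 3290 on mTert 1, and 3724 on control 2 against 3332 on control 1. It stood at 0.18 (SE 0.10, limma adjusted p = 0.599). In each of these genes both arrays titled 2 lay above both titled 1.

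The 3 probe sets of Ctsz, a carboxypeptidase, disagreed. Probe set 1417870_x_at read 2265 on mTert 2 against 2015 on mTert 1, and 2094 on control 2 against 1619 on control 1. Probe set 1417868_a_at read 4258 on mTert 2 against 3388 on mTert 1, but 3593 on control 2 against 3605 on control 1. Probe set 1417869_s_at showed the same form, with 1111 on mTert 2 against 807.6 on mTert 1, and 897.5 on control 2 against 904.0 on control 1. Hence only the first separated the numbers, and on the others mTert 2 alone was high. The log2 differences were 0.27 (SE 0.12), 0.16 (SE 0.10) and 0.23 (SE 0.15), with limma adjusted p of 0.402, 0.732 and 0.770. The suffixes x and s mark probe sets that may also bind other transcripts.

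Ctsd, the main aspartic protease, read 8117 on mTert 2 against 7455 on mTert 1, and 7212 on control 2 against 6934 on control 1. The numbers overlapped and the log2 difference was 0.09 (SE 0.08, limma adjusted p = 0.852). Ctsl read 6389 on mTert 2 against 6552 on mTert 1, and 6582 on control 2 against 6714 on control 1, a log2 difference of -0.03 (SE 0.08, limma adjusted p = 0.987). Ctsk read 1030 on mTert 2 against 1190 on mTert 1, and 943.1 on control 2 against 1037 on control 1. It was the 1 probe set with both arrays titled 2 below both titled 1, at -0.17 (SE 0.14, limma adjusted p = 0.838).

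Of the 13 probe sets, 8 had both arrays titled 2 above both titled 1, 1 had them below and 4 overlapped. Over all tested probe sets 20.3% lay above, 19.4% below and 39.8% in either place. By sign alone 9 probe sets were higher on the array titled 2 in both groups and 2 lower in both, against 26.5% and 26% of all, and 52.5% in either direction. The median log2 difference was 0.27 over the 13 probe sets, 5 of which read Ctsb or Ctsc, and 0.00074 over all tested. Over 1 probe set per gene, the brightest, the median was 0.17, and 4 of the 8 genes lay above and 1 below. Of all 7387 genes tested 21.9% lay above without overlap. For a single probe set, a two-sided exact permutation test of 2 arrays against 2 has 0.33 as its smallest p.

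**Figure D2:**
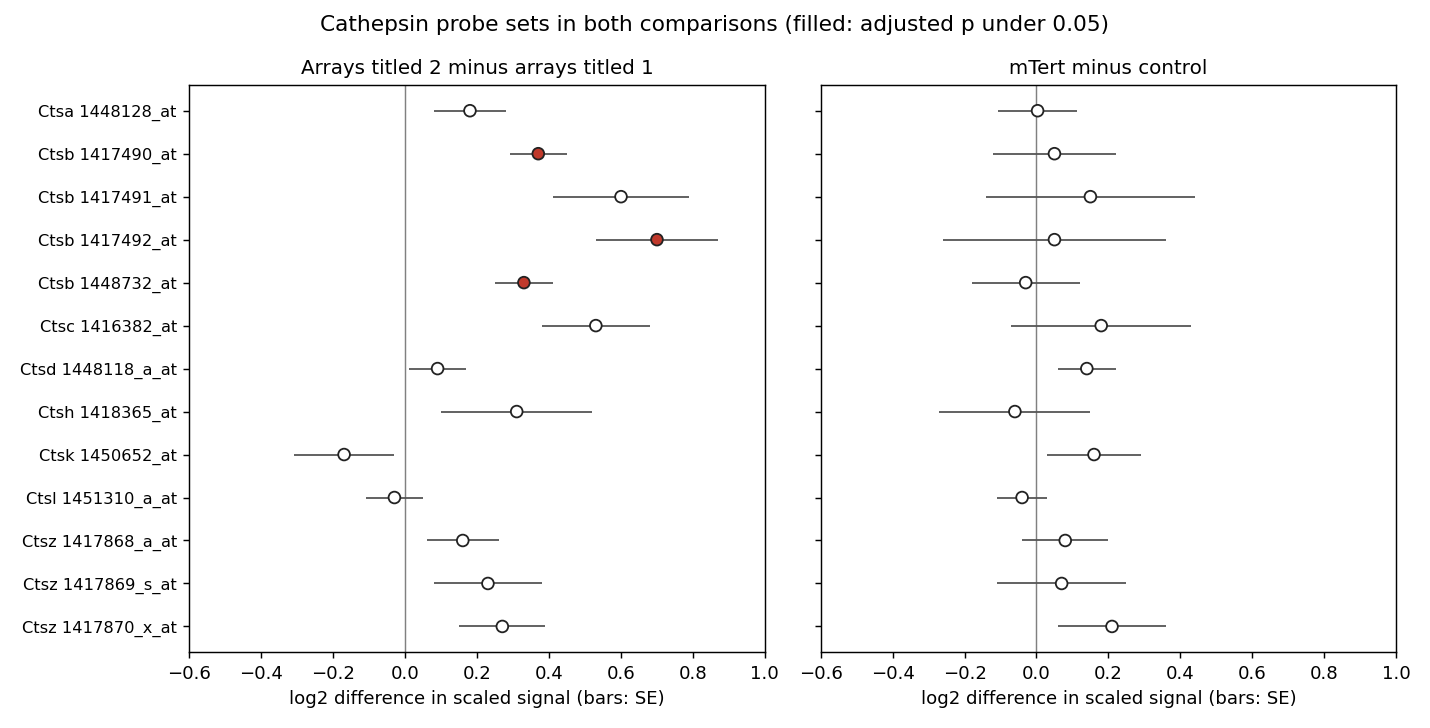
Log2 difference in scaled signal (horizontal axes, bars: SE of limma) of each cathepsin probe set for arrays titled 2 minus 1 (left) and mTert minus control (right). The 3 filled points, at an adjusted p under 0.05, are all Ctsb on the left, and on the right all points lie between -0.06 and 0.21.

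Markers of macrophages moved with the numbers as well. All 27 listed markers were on the array, of which 11 were present on all 4 arrays, 9 on both arrays titled 2 and neither titled 1, and 4 on no array. The 4 were Aif1, Cybb, Fcgr1 and Itgam. The summed signal of all 27 was 24368 on mTert 2 against 7823 on mTert 1, and 23776 on control 2 against 6295 on control 1. The 11 present throughout had a median log2 difference of 1.83 (3.56-fold), with a range from 0.31 for Fcgr2b to 2.87 for Mrc1. Of these 11, 9 rose at a limma adjusted p under 0.05.

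The cathepsin of this list, Ctss, which is typical of antigen-presenting cells, read 2045 on mTert 2 against 337.1 on mTert 1, and 1947 on control 2 against 302.4 on control 1. Its log2 difference of 2.64 (SE 0.15, limma adjusted p = 1.1e-08) compares with 0.70 for the largest of the 13 probe sets, 1417492_at of Ctsb. By the brightest probe set of each of the 8 genes the largest was Ctsc at 0.53. Cd68, a lysosomal membrane protein of macrophages, stood at 2.09 (SE 0.18) and Lyz2, their lysozyme, at 2.22 (SE 0.12). Among fibroblast markers Thy1 fell by 0.68 (SE 0.11, limma adjusted p = 0.001) and Dcn fell by 0.51 (SE 0.11, limma adjusted p = 0.015). The median of all 13 fibroblast markers was -0.01. Among 6 adipocyte markers on the array Lpl rose by 1.08 on arrays titled 2 (SE 0.13, limma adjusted p = 8.4e-05). Cebpa and Fabp4, also present on all 4 arrays, stood at 0.29 (SE 0.17) and 0.05 (SE 0.26) and did not pass, and Adipoq, Lep and Pparg were called present nowhere. Of the endothelial markers Tek stood at 0.94 (SE 0.27, limma adjusted p = 0.092) and Kdr at 0.24 (SE 0.21). Each had both arrays titled 2 above both titled 1, but Kdr was called present on both arrays titled 1 and on neither titled 2. The other 6 were called present nowhere. The part of macrophage transcripts in the cathepsin differences was not tested. In such bulk samples a change in the number of cells of a type and in RNA per cell cannot be told apart.

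**Figure D3:**
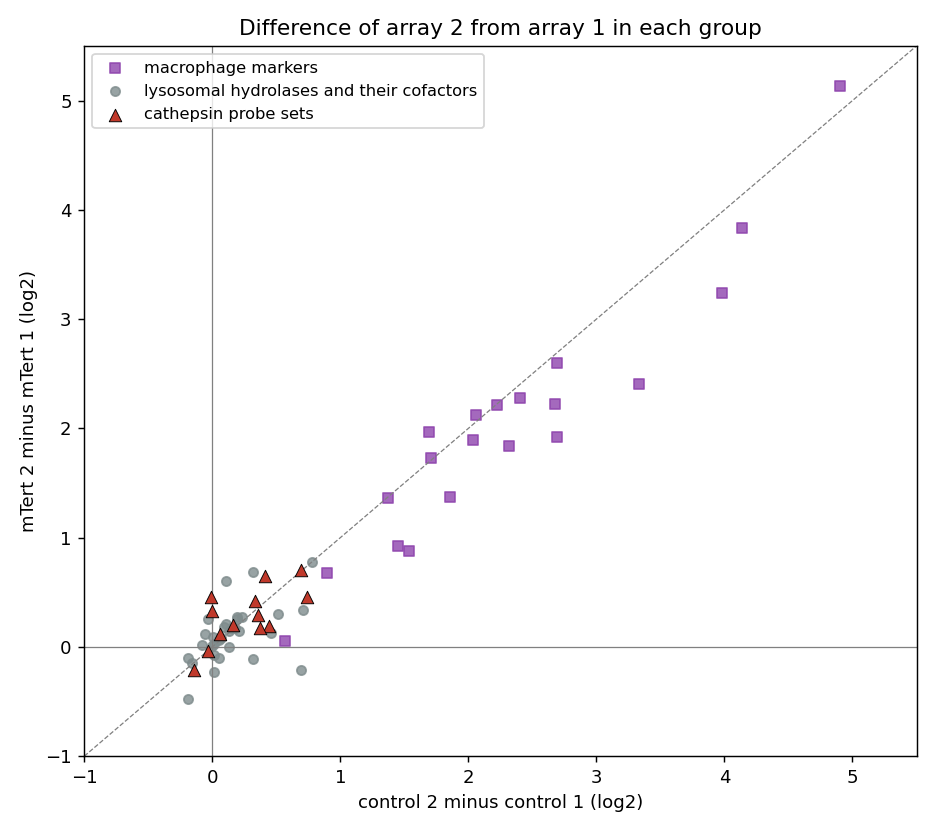
Log2 difference of array 2 from array 1 in control (horizontal) and in mTert (vertical), 1 point per cathepsin probe set, tested lysosomal hydrolase gene or tested macrophage marker, with the line of equality dashed. The cathepsins lie between -0.21 and 0.74 on both axes, and the markers reach further up, 9 of them with signals on arrays titled 1 that were not called present.

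Other members of the cathepsin family were mostly not called present. Of 14 further cathepsin genes 13 were on the array and 2, Ctss and Ctse, passed the filter on calls. The 2 probe sets of Ctse, an aspartic protease, lay on opposite sides, at 0.39 (SE 0.25) and -0.49 (SE 0.20), and neither passed. Ctsf was called present on control 1 alone. The remaining 10, which are Ctsg of granulocytes, Ctsw of lymphocytes, the placental Ctsj, Ctsm, Ctsq and Ctsr, and Cts3, Cts6, Cts7 and Cts8, were called present nowhere. Their brightest probe sets read at most 59.5.

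Of the inhibitors 10 of 14 were on the array and 4 were tested, of which 2 rose and 1 fell on arrays titled 2. Of all 7387 genes tested 141 rose (1.91%) and 85 fell. Of the untested inhibitors Serpinb6b was called present on 1 array, and Cst6, Cst7, Cst9, Cst10 and Stfa3 on none. Cst3, the secreted cystatin C, read 10066 on mTert 2 against 7592 on mTert 1, and 9782 on control 2 against 8554 on control 1. It rose by 0.30 on the log2 scale (SE 0.08, limma adjusted p = 0.040). Cstb, the cytosolic stefin B, stood at 0.0045 and -0.05 on its probe sets. Ctla2a and Ctla2b, which resemble the propeptide of a cysteine cathepsin, moved in opposite directions.

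Ctla2a read 118.4 on mTert 2 against 337.4 on mTert 1, and 126.6 on control 2 against 361.1 on control 1. It fell by 1.51 on the log2 scale (SE 0.22, limma adjusted p = 0.00057). Ctla2b read 218.2 on mTert 2 against 70.2 on mTert 1, and 171.5 on control 2 against 49.3 on control 1, and rose by 1.72 (SE 0.29, limma adjusted p = 0.002). Each separated the numbers in both groups. The genes are close relatives, so it is uncertain how far each probe set reads its own transcript alone.

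Of 40 listed lysosomal hydrolases and cofactors 32 were tested, and 1 rose and 0 fell on arrays titled 2. Of all genes tested 1.91% rose, a share that 1 of 32 (3.12%) lies near. The gene was Lgmn, legumain, the protease that cuts single-chain cathepsins into their mature chains. It read 2818 on mTert 2 against 1636 on mTert 1, and 2822 on control 2 against 1649 on control 1, a log2 difference of 0.78 (SE 0.11, limma adjusted p = 0.00044). Next by p came beta-glucuronidase Gusb at 0.41 (SE 0.13), Manba at 0.53 (SE 0.19) and Galns at 0.50 (SE 0.19), and none of these passed. The median of the 32 was 0.12, with 25 higher and 7 lower by sign and 15 with both arrays titled 2 above both titled 1. Over all 7387 genes tested the median was 0.01, 52.2% were higher by sign and 21.9% lay above without overlap.

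Genes of the lysosome's membrane, acidification, delivery and control passed the test in neither direction. The 12 membrane proteins had a median of 0.02, and those of smallest p were Litaf at -0.14 (SE 0.12), Lamp2 at 0.08 (SE 0.08), Laptm4b at -0.09 (SE 0.10) and Lamp1 at -0.07 (SE 0.08). The 15 subunits of the V-ATPase, the proton pump that acidifies the lysosome, had a median of 0.00, with Atp6v1e1 at 0.22 (SE 0.12), Atp6v0b at -0.21 (SE 0.11), Atp6v1d at -0.22 (SE 0.13) and Atp6v0a1 at 0.26 (SE 0.17). The 9 sorting genes had a median of 0.07, with the retromer subunits Vps26a at 0.47 (SE 0.15) and Vps29 at 0.15 (SE 0.10). The mannose 6-phosphate receptors stood at -0.24 (SE 0.10) for the large Igf2r and 0.17 (SE 0.11) for the small M6pr. The 9 tested MiT factors and regulators had a median of 0.06, with Lamtor1 at 0.14 (SE 0.10), Flcn at -0.14 (SE 0.14), Mtor at 0.17 (SE 0.17) and Lamtor2 at 0.12 (SE 0.14). By the sign of the mean difference 8 of the 9 sorting genes were higher on arrays titled 2, against 52.2% of all genes tested. Among them only M6pr, Vps26a and Vps29 were higher in both groups, and the others had opposite signs in the groups.

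**Figure D4:**
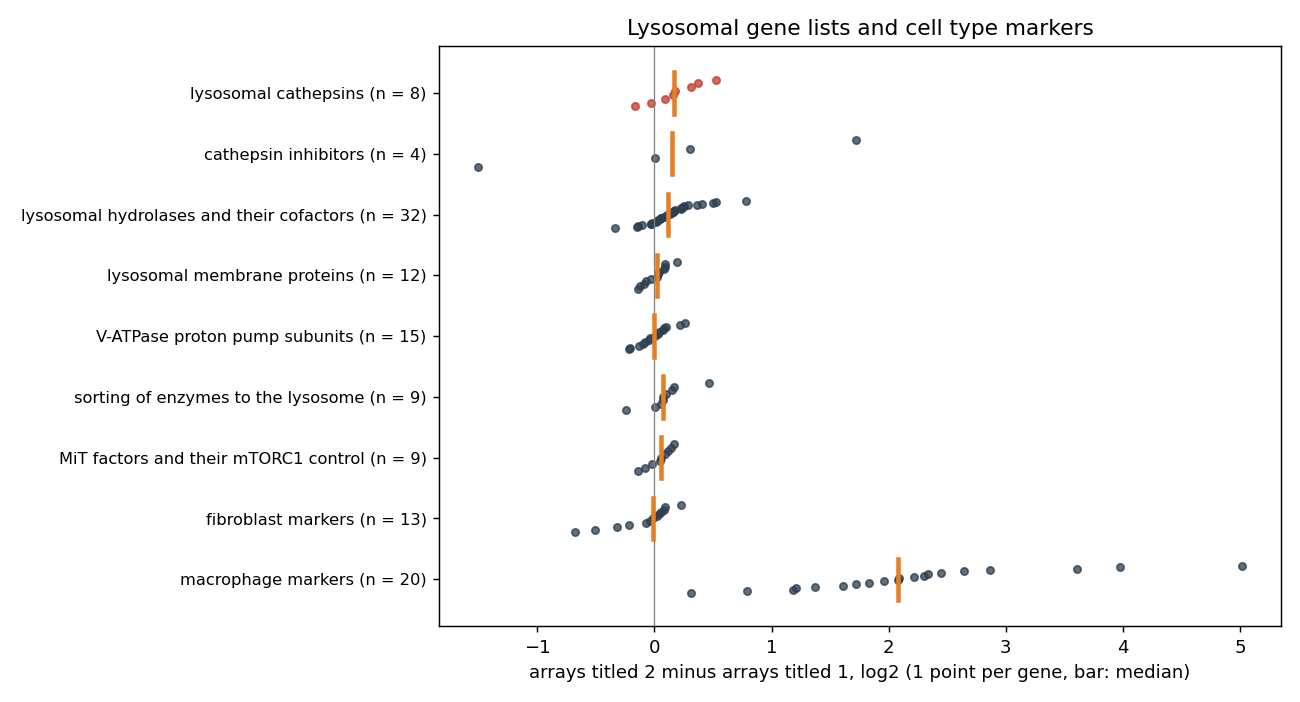
Log2 difference of arrays titled 2 minus 1 (horizontal axis), 1 point per tested gene, for the cathepsins, 6 of the 7 lists of related lysosomal genes and the fibroblast and macrophage markers, with bars at the medians. The medians run from -0.01 for fibroblast markers to 0.17 for cathepsins, and the macrophage markers, which include genes not called present on arrays titled 1, lie apart at 2.08. The other cathepsins, with 2 tested genes and a median of 1.08, are not drawn.

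The comparison of mTert with control asks whether cathepsin transcripts differ in fibroblasts that carry the telomerase subunit. By limma without a replicate term 0 of 13 probe sets passed, with adjusted p of 1.000 for each, and 0 had an unadjusted p under 0.05. Over all tested probe sets 0% passed, and 2.11% had such an unadjusted p. The log2 differences lay between -0.06 for Ctsh and 0.21 for Ctsz probe set 1417870_x_at, with a median of 0.07 against 0.0058 over all tested. By mean log2 signal 10 probe sets were higher and 3 lower in mTert, with several probe sets each for Ctsb and Ctsz. By the brightest probe set of each gene 6 of the 8 genes were higher and 2 lower. Of all 7387 genes tested 3875 were higher and 3512 lower. Tert itself did not pass in this fit, at a log2 difference of 3.25 (SE 0.26, limma adjusted p = 0.188). In simulated data the fit called 2.09% of changes of 0.5 and 33.9% of changes of 1 on the log2 scale. A lack of calls thus does not show a lack of difference. These results belong to the fit without a replicate term, which counts differences between the numbers as spread. With such a term the SE was 0.08 instead of 0.17 for Ctsb probe set 1417490_at, and 0.08 instead of 0.07 for Ctsl. Of the cathepsin probe sets 0 passed there too.

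Ctsd was the 1 probe set with both mTert arrays above both control arrays, and Ctsl the 1 with both below. Over all tested probe sets 13.4% lay above and 12.1% below, 25.5% in all. Ctsd averaged 7786 ± 468 in mTert and 7073 ± 196 in control (SD, n = 2 each), a log2 difference of 0.14 (SE 0.08). It was 0.17 between mTert 2 and control 2 and 0.10 between mTert 1 and control 1. Ctsl averaged 6471 ± 115 in mTert and 6648 ± 93.5 in control, a log2 difference of -0.04 (SE 0.07).

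Ctsk, which degrades type I collagen, averaged 1110 ± 113 in mTert and 989.9 ± 66.1 in control, with a log2 difference of 0.16 (SE 0.13). It was higher in mTert at both numbers, by 0.13 between arrays titled 2 and by 0.20 between arrays titled 1. Ctsc averaged 1027 ± 322 in mTert and 892.7 ± 179 in control, at 0.18 (SE 0.25). The Ctsb probe sets stood at 0.05, 0.15, 0.05 and -0.03, with SE from 0.15 to 0.31. For Ctsb and Ctsc the spread within each group, which is that between the numbers, was larger than the difference between the groups.

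Ctsa stood at 0.0031 (SE 0.11). The Ctsz probe sets stood at 0.08, 0.07 and 0.21, with 1417868_a_at at 0.25 between arrays titled 2 and -0.09 between arrays titled 1. Of the 13 probe sets 7 were higher in mTert at both numbers and 1 lower at both, and of all tested 44.6% had 1 sign at both. The macrophage markers present throughout had a median of 0.05 between mTert and control, from -0.23 to 0.26. With 1 array left out, 9 of the 13 probe sets changed sign in at least 1 of 4 fits, all 4 of Ctsb among them. Without 1 array Ctsz probe set 1417870_x_at lay between 0.03 (without control 1) and 0.40 (without control 2), and Ctsk between 0.06 (without mTert 1) and 0.27 (without mTert 2).

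Related genes showed no call between mTert and control either, with 0 passing in each list. The medians were 0.01 for hydrolases and cofactors, 0.04 for membrane proteins, -0.01 for the V-ATPase, 0.01 for sorting and 0.01 for MiT factors and regulators. Among hydrolases Idua, which cleaves iduronic acid from glycosaminoglycans, had the smallest p, with 650.5 on mTert 2 and 641.2 on mTert 1 against 487.6 on control 2 and 515.9 on control 1, a log2 difference of 0.36 (limma unadjusted p = 0.033). Next by p were Galc at -0.81 (SE 0.42), Grn at -0.15 (SE 0.09) and Gla at 0.26 (SE 0.17). Galc was called present on both control arrays and on neither mTert array, so it passed the filter on calls through the control arrays alone. Its signals were low, at 25.2 on mTert 2 and 29.2 on mTert 1 against 60.6 on control 2 and 37.5 on control 1.

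Of the membrane proteins Mcoln1, a lysosomal calcium channel, stood at 0.20 (SE 0.15), the cholesterol exporter Npc1 at 0.19 (SE 0.18), Cd164 at -0.10 (SE 0.12) and Litaf at 0.10 (SE 0.13). Of the V-ATPase Atp6v0b stood at 0.19 (SE 0.13), Atp6v0a1 at -0.20 (SE 0.18), Atp6v1g1 at -0.11 (SE 0.10) and Atp6v1b2 at -0.09 (SE 0.11). Sorting genes stood at 0.12 (SE 0.10) for Vps29, -0.23 (SE 0.25) for Vps26a, -0.06 (SE 0.09) for Vps35 and 0.10 (SE 0.15) for Ap1g1. Lamtor5, part of the complex that holds mTORC1 at the lysosome, stood at 0.26 (SE 0.15), Lamtor3 at -0.19 (SE 0.11), Lamtor4 at 0.12 (SE 0.13) and Rragc at -0.07 (SE 0.10).

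Centred on their mean, the brightest probe sets of the 8 genes averaged 0.14 on mTert 2, -0.07 on mTert 1, 0.04 on control 2 and -0.11 on control 1. The most alike of 7379 other genes by mean absolute distance over these 4 arrays were Nipbl, Rbpj, Tmem33, Mtor and 2510009E07Rik, at 0.010 to 0.012 on the log2 scale. With 4 arrays and so small a range, 37 genes lay within 0.01 of the most distant of these.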

How the data were processed

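The authors deposited a signal intensity, a detection call and a detection p-value per probe set for each array, per the file headers. The deposited trimmed means of 498.593 to 498.779 show 1 common level, set in a way the sources used here do not state. Without the control probe sets, each array was scaled again to 1 trimmed mean and log2 was taken. Probe sets called present on at least 2 of 4 arrays were tested (12396), and 1 signal at 0 was set to its array's lowest present signal.

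Both comparisons were fitted with limma 3.58.1 (R 4.3.3) with an intensity trend. mTert was set against control without a block, and arrays titled 2 against arrays titled 1 with a group term. Benjamini-Hochberg adjustment ran over all tested probe sets, at a threshold of 0.05. The scripts were tested on simulated data with 200 of 12396 probe sets changed per run. The second fit called 22 unchanged probe sets per run there, more than its threshold allows. Alternatives were quantile normalization, signals as deposited, other filters on calls, an added constant, no trend, the block or group term, and each array left out. Lists used the brightest probe set of each gene. All members were named, with the other cathepsins and inhibitors on the array and, of each other lysosomal list, the 4 genes of smallest p in each comparison. The members and lists were chosen with earlier results of these data known. The number of arrays limits the precision.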

Additional observations from a re-analysis of the deposited data

Results flagged for a closer look

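Of the cathepsin probe sets 2, both of Ctsz, had differences between arrays titled 2 and 1 of opposite sign in the groups. Probe set 1417868_a_at differed by 0.33 on the log2 scale in mTert and by -0.0049 in control, a gap of 0.33. Probe set 1417869_s_at differed by 0.46 in mTert and by -0.01 in control, a gap of 0.47. The difference between the groups was not tested, since each pair holds 1 array per number. The remaining Ctsz probe set, 1417870_x_at, differed by 0.17 in mTert and by 0.37 in control.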

How the results depend on the processing

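The labels do not say that the numbers pair samples. Deviations from the group means correlated at 0.37 between mTert 2 and control 2, and with the replicate block 18 probe sets differed between mTert and control, against 0 without it and 0 among cathepsins in both. For arrays titled 2 against 1, 347 probe sets passed, 76 without a trend, 192 without a group term, and, with no group term, 80 without mTert 2, 204 without mTert 1, 91 without control 2 and 203 without control 1. Of cathepsin probe sets 3 passed, 1 after quantile normalization, 0 with no filter on calls, 0 without a trend and 0 with any array left out and no group term. These last fits were chosen after seeing the data. With 1 array left out, mTert minus control ranged from -0.10 to 0.10 for Ctsa, -0.14 to 0.51 for Ctsc and -0.28 to 0.16 for Ctsh. It ranged for Ctsb from -0.16 to 0.26 (1417490_at), -0.22 to 0.52 (1417491_at), -0.30 to 0.40 (1417492_at) and -0.21 to 0.15 (1448732_at). For Ctsz it ranged from -0.09 to 0.24 (1417868_a_at), -0.16 to 0.30 (1417869_s_at) and 0.03 to 0.40 (1417870_x_at). Without a change of sign it ranged from 0.06 to 0.27 for Ctsk, 0.08 to 0.20 for Ctsd and -0.06 to -0.02 for Ctsl. The cause was not tested.

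With a mean over probe sets, list medians for arrays titled 2 against 1 were 1.30 for other cathepsins, 0.08 for hydrolases and 0.03 for sorting. For mTert against control they were 0.01 for membrane proteins and 0.05 for MiT factors. With 1 array left out, the fit of 2 against 1 rests on the 1 pair of the complete group. Its medians in mTert and control were 0.12 and 0.11 for hydrolases, -0.03 and 0.02 for membrane proteins, and 0.15 and 0.14 for sorting. With 1 array left out, medians for mTert against control were -0.14 to 0.14 for inhibitors and 0.01 to 0.04 for membrane proteins. They were -0.03 to 0.02 for the V-ATPase, -0.08 to 0.09 for sorting and -0.03 to 0.11 for MiT factors.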
